A study of Mus musculus with 22 samples.

Results

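Inpp4a encodes inositol polyphosphate-4-phosphatase type I. It was followed here as locus XLOC_000267, which is 1 of 66494 loci in each of 2 tables, one of total RNA from sorted Purkinje cells (PCs) and one of ribosome-bound RNA (TRAP), in all 22 libraries including those with rapamycin. The locus was chosen with its values in these data known, and it stands in the study's own list of genes that differed between the sorted genotypes, so that its sorted values are a description without a test. The 10 sorted libraries came from GFP-positive cerebellar cells of C57BL/6 mice, 5 labelled CC (mutant, Tsc1 fl/fl) and 5 labelled WW (control, Tsc1+/+). In these mice the L7 (Pcp2) promoter drives both GFP and Cre, which deletes Tsc1 in PCs. One passage of the study gives controls with L7Cre and another gives controls without it, and the labels do not say which. The 12 TRAP libraries came from mice in which L7Cre switches on an EGFP-tagged RPL10A at Rosa26, with 3 libraries each of control, mutant, control with rapamycin and mutant with rapamycin. The labels give no age, rapamycin dose or schedule. For the sorted mice the study's methods name 2 ages and do not say which library had which. The sorted libraries held 43.3 to 86.3 M fragments and the TRAP libraries 2.47 to 6.38 M. Controls 144a and 144b share an animal number, and for the TRAP libraries nothing states that replicates are separate animals, so that p-values measure only the spread between these libraries.

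INPP4A removes the phosphate at the 4 position of phosphatidylinositol 3,4-bisphosphate, a membrane lipid that forms downstream of PI 3-kinase and helps to recruit AKT, and leaves phosphatidylinositol 3-phosphate, an endosomal lipid. AKT in turn inhibits the TSC1/TSC2 complex, the brake on mTOR complex 1, and rapamycin inhibits that complex. Mice that lack Inpp4a develop ataxia and lose PCs, which makes it one of the phosphoinositide phosphatases with a known role in this cell.

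In GRCm38, Inpp4a spans chr1:37299865-37410736 on the plus strand and has 13 annotated transcripts, of which 10 are protein-coding. The study's supplementary list pairs the locus with Inpp4a-210, a processed transcript of 2 exons and 369 bases at the 5′ end of the gene (chr1:37299865-37348512), and not with a coding transcript. How much of the coding transcripts the assembled locus covers is not given in the sources used here. Messages with a 5′ terminal oligopyrimidine (TOP) start, a C followed by at least 4 pyrimidines, are the classic translational targets of mTOR, so the bases at the 3 RefSeq starts of Inpp4a (GRCm38.p6, plus strand) are shown with the start base in capitals.
Start 1, chr1:37299823-37299852: gggagggagggggcaGggcggcggtcgggg
Start 2, chr1:37299881-37299910: cggaaccggggcgggGttgtgcgctgtgtt
Start 3, chr1:37369202-37369231: tttaccttggctcctGtagtttctctgcgt
Each of the 3 starts has a G as its first base, so none holds the TOP letters at its annotated start. Of 32851 RefSeq start windows, 823 (2.51%) did. The base of start 3 is the annotated 5′ end of 2 protein-coding Inpp4a transcripts, and starts 1 and 2 match no coding transcript to the base.

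In total RNA of sorted PCs, Inpp4a was lower in mutants than in controls. The deposited values are estimated fragments scaled by the authors with a size factor for each library. The mutant values were 846 in library 61, 1022 in library 74, 1158 in library 103, 1518 in library 167 and 1552 in library 191. The control values were 1799 in library 176, 2144 in library 144b, 2426 in library 48, 2465 in library 144a and 3487 in library 45. Every mutant library lay below every control library. Of 16455 loci with a mean log2 of at least 5, 229 (1.39%) showed the same order, and 177 (1.08%) were lower by the study's thresholds (a fold above 2 and a p under 0.01 before adjustment), Inpp4a among them. With limma, 0 of the 16455 loci had an adjusted p under 0.05, while 1861 had an unadjusted p under 0.05. Because Inpp4a was selected on this contrast, nothing is read from these counts about the gene.

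The mean Inpp4a value was 1219 ± 309 in mutants and 2464 ± 631 in controls (SD, n = 5 each), so that the mutant mean was 49.5% of the control mean. The 5 controls carry only 4 animal numbers, and with 144a and 144b averaged the log2 difference was -1.03. On the log2(value + 1) scale the means were 10.21 ± 0.37 and 11.23 ± 0.35, a difference of -1.02, where the median difference of all loci was 0.03. Leaving out each library in turn gave differences of -1.12 to -0.88. Inpp4a lay just inside the fold threshold (a log2 difference of -1), and it was outside it without mutant 61 (-0.90), mutant 74 (-0.96) or control 45 (-0.88), under equal totals (-0.97, or -0.93 without loci over 1% of any library) and with limma-voom (-0.98). Per M fragments of each library, which does not use the authors' size factors, Inpp4a ranged from 13.2 to 24.4 in mutants and from 28.2 to 53.2 in controls, again without overlap.

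**Figure D1:**
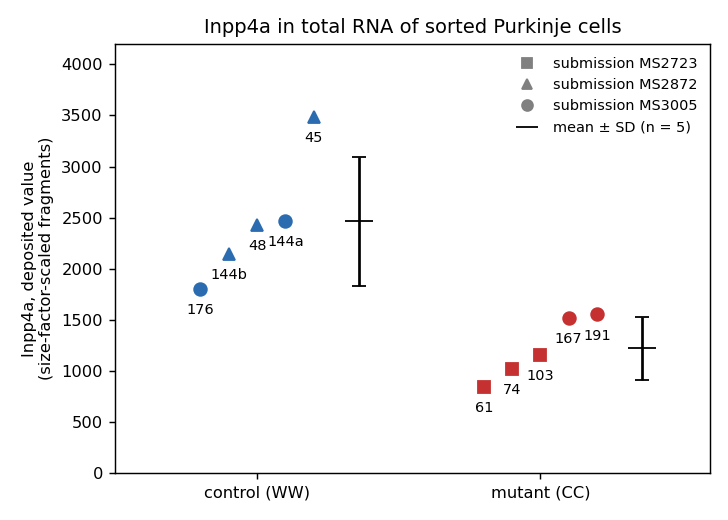
Inpp4a in each sorted library (deposited value, y axis from 0) by genotype, with library numbers, marker shape for the submission number and the mean ± SD of 5 libraries. The 5 mutants lie between 846 and 1552 and the 5 controls between 1799 and 3487, and the mutants of submission MS3005 lie nearest to the controls.

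The size of the difference depended on the submission number in the labels. The 3 mutants with the lowest Inpp4a (61, 74 and 103) made up submission MS2723, and controls 45, 48 and 144b made up MS2872, so that only MS3005 held both genotypes. Within MS3005 the mutants had 1518 and 1552 and the controls 1799 and 2465. This order was the same as over all libraries, but the log2 difference was -0.46. A fit with submission as a term over all 10 libraries takes its difference from MS3005 alone and gives the same -0.46, and in both Inpp4a was no longer past the thresholds. Outside MS3005, genotype and submission cannot be told apart.

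PC markers moved with these values. The summed value of the 11 PC marker genes that could be named (of a list of 15, among them Pcp2, Calb1 and Car8) was 60923 to 143243 in the MS2723 mutants, and Inpp4a was lowest in those same 3 libraries. In MS3005 the sum was 406840 and 429581 in the mutants and 409066 and 687406 in the controls, and in MS2872 it was 524035 to 759331. The sums of the MS3005 mutants lay beside or above that of control 176 (409066) and below that of control 144a (687406). Inpp4a in these mutants was lower than in either control. The 3 astroglial genes that could be named, of a list of 10 (Gfap, Tnc and Apoe), summed to 216535 to 342706 in mutants and 116380 to 286336 in controls. The 2 interneuron genes of 10 (Gad1, which PCs also express, and Tfap2b) summed to 142 to 3049 in mutants and 3941 to 8231 in controls, without overlap like Inpp4a. Most of this sum was Gad1 (142 to 2875 and 3802 to 7708). Tfap2b overlapped (0 to 173 in mutants and 109 to 649 in controls). The sums of 3 microglial genes of 10 (12325 to 30384 and 10138 to 46757) and of 2 vascular genes of 10 (2105 to 24858 and 6210 to 19704) overlapped. The part of the RNA of these cell types in the Inpp4a difference was not tested, and fewer PCs and less Inpp4a RNA per PC cannot be told apart in these bulk libraries.

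In TRAP without rapamycin, Inpp4a was also lower in mutants, by a smaller amount. The control values were 306, 329 and 347 in libraries 1, 2 and 3, from 360, 524 and 623 fragments. The mutant values were 241, 211 and 226, from 123, 140 and 744 fragments. No mutant library reached the lowest control, as was the case for 6.81% of the 9658 loci tested. The mean was 226 ± 14.9 in mutants and 327 ± 20.3 in controls (SD, n = 3 each), 69.0% of the control mean. The log2 difference was -0.53 (limma SE 0.31, 95% interval -1.27 to 0.20, adjusted p = 0.694), beside a median of 0.07 over all loci. The exact permutation test gave its smallest possible two-sided p of 0.1. Inpp4a was thus not past the study's thresholds, which 189 loci passed (1.96%, 1.01% lower and 0.942% higher). Limma borrows its variance from all loci. The log2 SD of the Inpp4a libraries themselves was 0.09 in each genotype. That SD rests on 3 libraries and is not the same measure as the SE of a difference. With no filter, an intensity trend or limma-voom the interval excluded 0 (-0.97 to -0.11 with limma-voom), while the adjusted p was 0.411 or more under every alternative. As for the other TRAP tests below, the gene was chosen with these values known.

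With rapamycin, Inpp4a was lower in control libraries and higher in mutant libraries. The control values with rapamycin were 219, 277 and 237, all below the 306 of the lowest untreated control. The mutant values with rapamycin were 264, 291 and 292, all above the 241 of the highest untreated mutant. In control mice the mean with rapamycin was 74.6% of that without, a log2 difference of -0.43 (limma SE 0.51, 95% interval -1.65 to 0.80, adjusted p = 0.898), where the median of 8682 loci was itself -0.31. In mutants it was 125%, a log2 difference of 0.32 (SE 0.29, 95% interval -0.37 to 1.01, limma adjusted p = 0.751), beside a median of -0.04. Neither passed the thresholds, and both exact permutation tests gave 0.1, the smallest p that 3 against 3 libraries allow. Of the loci tested, 7.18% were lower without overlap in controls and 7.41% higher without overlap in mutants. The thresholds were passed by 1.05% and 1.75% of loci.

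The difference between these 2 effects, the interaction of genotype and rapamycin, was 0.75 on the log2 scale (limma SE 0.50, 95% interval -0.36 to 1.86, adjusted p = 0.872, 12 libraries). The median of 9174 loci was 0.33 and 63.1% of loci lay below Inpp4a, so that Inpp4a exceeded the median by 0.42. The interval excluded 0 with no filter, an intensity trend or limma-voom (0.10 to 1.42 with limma-voom), with adjusted p of 0.569 or more under every alternative. The interaction thresholds were passed by 1.91% of loci and not by Inpp4a. Lower values with rapamycin in every control and higher values in every mutant, as Inpp4a showed, were found at 31 loci (0.338%). This pattern was defined from the Inpp4a values themselves, and nothing is read from its share.

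Ordered by mean, Inpp4a was highest in untreated controls (327), then in mutants with rapamycin (282 ± 15.7), controls with rapamycin (244 ± 29.4) and untreated mutants (226). Mutants with rapamycin lay below untreated controls without overlap, as did 5.78% of loci, with a mean 86.2% as high and a log2 difference of -0.21 (limma SE 0.36, 95% interval -1.06 to 0.63, adjusted p = 0.931, exact permutation p = 0.1). The thresholds of this comparison were passed by 0.817% of loci. The genotypes under rapamycin overlapped, with a mutant mean of 116% of the control mean and a log2 difference of 0.21 (limma SE 0.49, 95% interval -0.96 to 1.39, adjusted p = 0.944, exact permutation p = 0.2), where the median of all loci was 0.32. Here 1.23% of loci passed the thresholds. Controls with rapamycin and untreated mutants also overlapped, since control 1 with rapamycin (219) lay below mutant 1 (241). The 4 groups share libraries between these comparisons, so that they are not independent of each other.

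**Figure D2:**
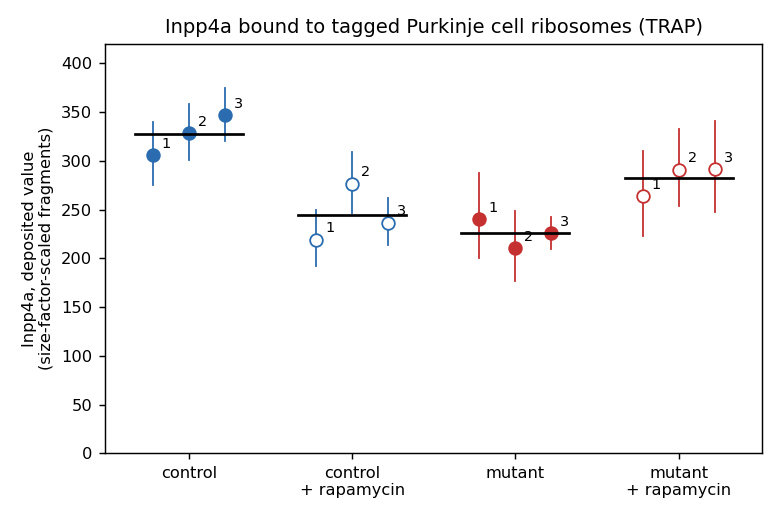
Inpp4a in each TRAP library (deposited value, y axis from 0) in the 4 groups of 3, filled without and open with rapamycin, numbered by replicate. Vertical lines are exact 95% Poisson intervals of the fragments, which cover counting error only, and black bars are group means (327, 244, 226 and 282 from left to right).

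**Figure D3:**
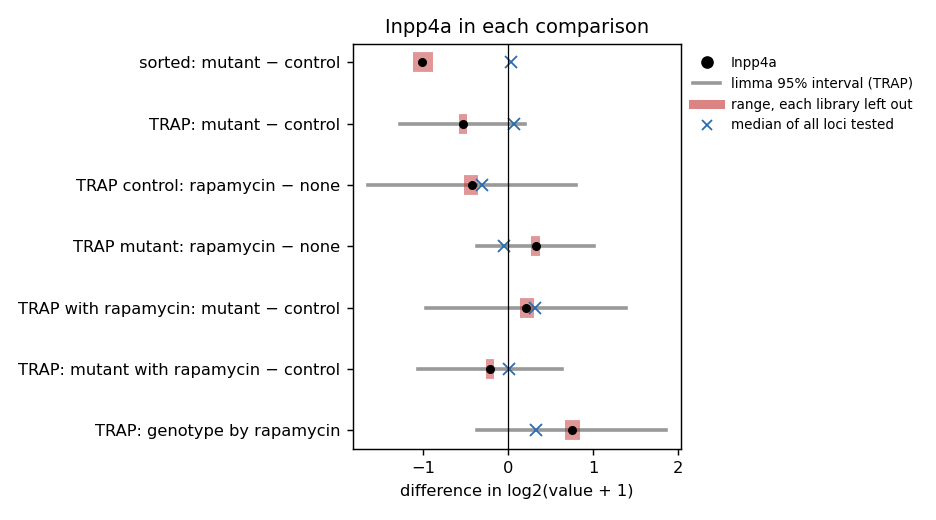
Log2 difference of Inpp4a in 7 comparisons (black points), with the limma 95% interval for the TRAP comparisons, the range when each library is left out (red) and the median of all loci tested (blue crosses). The sorted difference of -1.02 has no interval because the gene was selected on it, and every TRAP interval shown includes 0.

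One TRAP library stood apart in depth terms. Mutant 3 had 744 Inpp4a fragments among 2.84 M, or 262 per M fragments, against 45.7 and 41.0 per M fragments in mutants 1 and 2. In the other 11 TRAP libraries Inpp4a ranged from 41.0 to 97.6 per M fragments, and only after division by the authors' size factors did mutant 3 lie beside the other mutants. The 10 highest loci took 40.5% of mutant 3 and 58.3% to 72.6% of every other TRAP library.

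Scaling all libraries to equal totals moved the Inpp4a differences between genotypes, with or without mutant 3, and that of rapamycin in mutants. The mutant minus control difference became -0.14, while the median of all loci became 0.47. Rapamycin in mutants became -0.46 beside a median of -0.80, and the interaction became -0.071 beside a median of -0.46. Without mutant 3 in the comparison, mutant minus control under rapamycin became -0.21 (median -0.12) and mutants with rapamycin minus controls became -0.60 (median -0.35). Relative to the median of all loci the first 3 differences were -0.61, 0.34 and 0.39 under equal totals, against -0.60, 0.37 and 0.42 under the authors' scaling. Leaving out mutant 3 gave -0.54 for mutant minus control and 0.75 for the interaction.

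**Figure D4:**
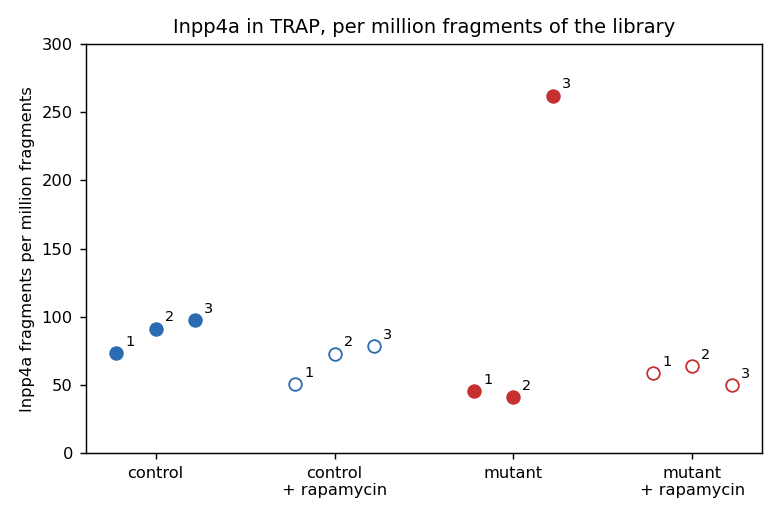
Inpp4a fragments per M fragments of each TRAP library, without the authors' size factors, in the same 4 groups and order. Mutant 3 stands at 262 and the other 11 libraries between 41.0 and 97.6.

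The PC marker sums varied less in TRAP than in sorted PCs. The 11 PC markers summed to 11856 to 14537 in controls, 10761 to 11715 in mutants, 9187 to 10785 in controls with rapamycin and 10798 to 11857 in mutants with rapamycin. The highest sums were those of untreated controls 1 and 3, and control 2 lay beside the highest mutant with rapamycin, while for Inpp4a all 3 untreated controls were highest. The 3 astroglial genes summed to 358 to 488 in untreated mutants and to 49.5 to 162 in the other 9 TRAP libraries. The higher sum came from Gfap and Apoe. Tnc went the other way, with 0 to 2.12 in untreated mutants and 5.57 to 15.3 in untreated controls. It was at 0 in mutant 2 and in the 3 controls with rapamycin. The microglial genes summed to 19.9 to 23.5 in untreated mutants and at most 5.65 in untreated controls, 11.1 in mutants with rapamycin and 46.8 in controls with rapamycin. The vascular genes summed to 3.05 to 9.04 in untreated mutants, 1.81 to 2.70 in mutants with rapamycin and 0 in all controls, and the interneuron genes overlapped between the 4 groups (154 to 361). Their part in the Inpp4a differences was not tested. Tsc1 itself could not be checked, since no supplementary file pairs it with a locus.

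Setting TRAP beside sorted PCs, the change in translational efficiency of Inpp4a (the TRAP log2 difference minus the sorted one, ΔTE) was 0.48. The median of 9374 loci was 0.19, and 35.2% of loci lay above Inpp4a. The positive value comes from a sorted difference of -1.02 and a TRAP difference of -0.53, both below 0. Against the sorted difference within submission MS3005, ΔTE was -0.079. Since the sorted difference helped to choose the gene, ΔTE carries no test.

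Phosphoinositides pass between kinases, phosphatases and lipases, and 137 other genes of these groups made up a fixed list. Of these, the supplementary files paired only 18 with a locus, and those files list genes that the study selected on these samples, so their counts are no independent evidence. In sorted PCs 5 of 18 were lower by the study's thresholds (1.08% of all loci) and 0 were higher (0.395%), 14 lay below 0, and the median was -0.52 (0.03 for all loci, of which 1.47% passed in either direction). In TRAP mutants against controls 0 of 16 were lower (1.01% of all loci) and 1 was higher (0.942%), with a median of 0.31 (0.07 for all loci). In the remaining TRAP comparisons 0 of 16 passed, where 0.817% to 1.91% of all loci did. No member had a limma adjusted p under 0.05 in any comparison. Over all loci the share that did was 0% in sorted PCs and in both effects of rapamycin, 0.0725% for mutant minus control, 0.0115% for the genotypes under rapamycin, 0.0636% for mutants with rapamycin against controls and 0.131% for the interaction.

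Among the phosphatases, Inpp5a, which removes the 5 phosphate of inositol trisphosphate, was lower in sorted mutants by the thresholds (log2 difference -2.06, SE 0.61, limma adjusted p = 0.394). Its values were 4786 to 43661 in mutants and 40797 to 75268 in controls, which overlapped. The 5-phosphatases Inpp5j and Inpp5e gave sorted differences of -1.23 and -0.44, and the 3-phosphatase Mtmr2 and its catalytically inactive relative Sbf1 gave -0.24 and -0.77, none past the thresholds. In TRAP mutants against controls the same 5 genes gave -0.39 for Inpp5a, 0.79 for Inpp5j, 0.53 for Inpp5e, 0.60 for Mtmr2 and 0.25 for Sbf1. Of Inpp4a and these 5 genes, Inpp4a and Inpp5a had TRAP differences below 0, neither past the thresholds, and the phosphatases that could not be named, Inpp4b, the paralog of Inpp4a, among them, were not analysed here.

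Among the kinases and readers of the substrate, Pik3cb, a catalytic subunit of PI 3-kinase, was the 1 gene higher in TRAP mutants by the thresholds (log2 difference 1.93, SE 0.35, limma adjusted p = 0.188), from 4.26 to 6.68 in controls to 17.6 to 25.6 in mutants. In sorted PCs its difference was 0.00. Pip5k1c, which makes phosphatidylinositol 4,5-bisphosphate, was lower in sorted mutants (-1.17) and gave -0.08 in TRAP. Plekha1 (TAPP1), which binds phosphatidylinositol 3,4-bisphosphate, gave -0.60 in sorted PCs and 0.38 in TRAP. Plekha2 (TAPP2) gave 0.18 in sorted PCs, and its TRAP values, 0 to 23.0 over the 12 libraries, were too low to be tested.

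Among the genes of inositol trisphosphate and diacylglycerol signalling, Itpr1, the inositol trisphosphate receptor of the PC endoplasmic reticulum, lay below 0 in both assays like Inpp4a. Its sorted values were 2854 to 56010 in mutants and 83842 to 175016 in controls, a log2 difference of -3.21 (SE 0.81, limma adjusted p = 0.394). Its TRAP values were 2563 to 3328 in controls, 1426 to 1503 in mutants, 2275 to 3252 in controls with rapamycin and 2684 to 3714 in mutants with rapamycin. The TRAP differences were -1.03 for mutant minus control and 1.07 for rapamycin in mutants, as for Inpp4a below and above 0, and neither passed the thresholds. Itpr1 is also one of the 11 PC markers. The diacylglycerol kinases Dgkz and Dgkh were lower in sorted mutants by the thresholds, with Dgkz at 5891 to 47145 in mutants and 44143 to 108692 in controls and Dgkh at a log2 difference of -1.47, and they gave -0.17 and 0.76 in TRAP.

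**Figure D5:**
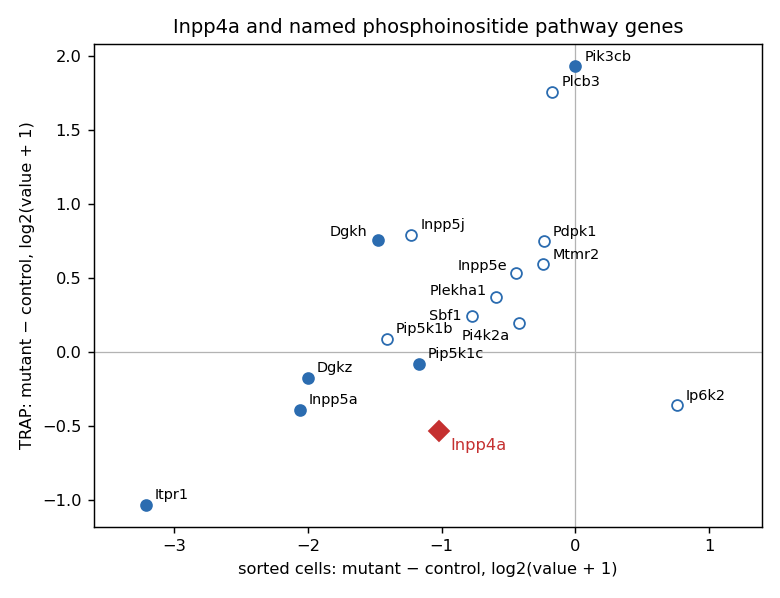
Log2 difference between mutants and controls in sorted PCs (x axis) and TRAP (y axis) for Inpp4a (red) and the 16 named pathway genes tested in both, filled where the study's thresholds were passed in either assay. Inpp4a (-1.02, -0.53) lies below 0 on both axes with Itpr1, Inpp5a, Dgkz and Pip5k1c.

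The loci whose values most resembled those of Inpp4a were found by the mean of 2 Pearson correlations of log2 values, over the 10 sorted and the 12 TRAP libraries, among 8897 loci of which 839 had a name. Among the 5 most alike named genes were Gabbr1 (a subunit of the GABA-B receptor, r = 0.910 sorted and 0.807 TRAP), Atp2a3 (the SERCA3 calcium pump, 0.922 and 0.758), Icmt (a protein carboxyl methyltransferase, 0.857 and 0.776) and Prmt8 (a brain arginine methyltransferase, 0.838 and 0.773). These correlations describe libraries that share genotype, submission and depth, and the median over loci was 0.09 in sorted PCs and 0.05 in TRAP. The 95th percentile was 0.812 in sorted PCs and 0.476 in TRAP. In Gabbr1, for example, TRAP values were 489 to 649 in controls, 212 to 224 in mutants, 349 to 446 in controls with rapamycin and 327 to 498 in mutants with rapamycin. In Prmt8 they were 150 to 191 in controls, 110 to 126 in mutants, 97.8 to 164 in controls with rapamycin and 168 to 175 in mutants with rapamycin, and unlike those of Inpp4a the controls with and without rapamycin overlapped. Across these 4 genes the sorted differences ran from -2.29 to -1.24, all further below 0 than the -1.02 of Inpp4a.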

How the data were processed

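RNA-seq was made from 10 sorted PC and 12 TRAP libraries. The authors trimmed reads with Trimmomatic (0.39), mapped them with STAR (2.7.0f) to GRCm38 and assembled and quantified transcripts with Cufflinks (2.2.1; versions from the submitters' processing notes), and deposited for each locus a signal, which is its estimated fragments scaled by a size factor of the library. The 2 tables were normalized separately, so their levels were not compared. The most frequent low value of a library was taken as the worth of 1 fragment. This gave 43.3 to 86.3 M fragments per sorted library and 2.47 to 6.38 M per TRAP library, and the deposited Inpp4a signal was a whole number of fragments (within 0.01) in 11 of 12 TRAP and 0 of 10 sorted libraries. Because only 84.4% to 95.1% of TRAP values and 61.9% to 72.6% of sorted values were whole, they were not tested as counts.

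Values were transformed to log2(value + 1), filtered at a mean of 5 (sorted) or 2 (TRAP), and compared with limma 3.58.1 in R 4.3.3, with only the groups compared in each fit except the interaction, which used all 12 TRAP libraries. Thresholds were those of the study, an unadjusted p under 0.01 and a fold above 2, with Benjamini-Hochberg adjusted p beside them. Fold changes on this scale are understated for low values. Exact permutation tests were two-sided. The scripts were tested on simulated data. Alternatives were other scalings, pseudocounts and filters, an intensity trend, limma-voom, submission, averaging of 144a and 144b, a replicate block, a joint fit and each library left out. Median ratio scaling and equal totals without loci over 1% of any library were chosen after seeing the data.

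Names came only from the supplementary files (1832 loci). For the gene lists, markers and most alike genes, only the 1635 loci with a class code of = or j were used. That code describes the match of a locus to an annotated transcript. Genes named are Inpp4a, the pathway list genes that pass the thresholds, are phosphoinositide phosphatases or read its substrate, and the 5 most alike named loci, of which 1 is not reported here. The gene, lists and tests were chosen with earlier results of these data known. Marker lists for granule cells and oligodendrocytes held 0 named loci and gave no value. Protein sequence was not used here.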

Additional observations from a re-analysis of the deposited data

Results flagged for a closer look

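On the authors' scaling, the effect of rapamycin on Inpp4a in TRAP went in opposite directions in the 2 genotypes. All 3 controls with rapamycin (219 to 277) lay below all 3 untreated controls (306 to 347), and all 3 mutants with rapamycin (264 to 292) lay above all 3 untreated mutants (211 to 241). The difference between the 2 effects was 0.75 on the log2 scale, and the limma interaction test gave an adjusted p of 0.872 and no alternative gave one under 0.569. Its median over all loci was 0.33. The effect in controls was -0.43 beside a median of -0.31, and in mutants 0.32 beside -0.04. Under equal totals both effects lay below 0. They were -0.39 in controls (median -0.27) and -0.46 in mutants (median -0.80), and the difference between them was -0.071. The same pattern was seen at 31 of 9174 loci (0.338%), but it was defined from the Inpp4a values themselves, so that nothing is read from this share.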

How the results depend on the processing

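Of 160 alternative values for 8 results, 153 kept direction and side of the threshold, or moved less than the spread between libraries. In TRAP Inpp4a passed no threshold, and some sorted values among the 153 missed the fold threshold. Reversed under equal totals were rapamycin in mutants (-0.46), the genotypes under rapamycin (-0.21, median -0.12) and the interaction (-0.071). Within MS3005, ΔTE reversed to -0.079 and the sorted difference was -0.46, as with submission as a term. Under equal totals ΔTE was 0.83. The cause of these reversals was not tested. Leaving out each library gave -1.12 to -0.88 for the sorted difference and 0.35 to 0.59 for ΔTE. In TRAP it gave -0.58 to -0.49 for mutant minus control, and -0.52 to -0.35 and 0.27 to 0.37 for rapamycin in controls and mutants. It gave 0.14 to 0.31 for the genotypes under rapamycin, -0.26 to -0.17 for mutants with rapamycin minus controls and 0.67 to 0.84 for the interaction.

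Counts of loci past the thresholds moved by over 1.5 times. In sorted PCs, 242 became 703 with no filter, 33 with submission as a term, 100 within MS3005, 530 without library 167 and 104 without library 61. The 177 loci that were lower became 104 with 144a and 144b averaged, 19 with submission as a term, 56 within MS3005 and 81 to 363 with each library left out. In TRAP mutant minus control, 189 became 490 with no filter, 87 under equal totals, 52 with all 4 groups in one fit, 354 without control 2 and 98 without mutant 2. For rapamycin in controls, 91 became 489 with no filter, 24 with a stricter filter, 39 with a pseudocount of 0.1, 53 with a trend and 425 in the joint fit. For rapamycin in mutants, 169 became 440 with no filter, 105 under equal totals, 301 with limma-voom and 44 in the joint fit. For the genotypes under rapamycin, 107 became 514 with no filter, 32 with a stricter filter, 55 with a pseudocount of 0.1, 71 with limma-voom and 435 in the joint fit. For mutants with rapamycin minus controls, 77 became 204 with no filter, 119 under equal totals, 121 and 41 with pseudocounts of 10 and 0.1 and 42 jointly. For the interaction, 175 became 392 with no filter, 36 with a stricter filter, 28 under equal totals, 95 with a pseudocount of 10 and 101 with a trend. With each library left out, these 5 counts ranged from 29 to 434, 72 to 221, 36 to 430, 56 to 121 and 121 to 529.

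At an adjusted p under 0.05 counts went from 7 to between 1 and 74 for mutant minus control, from 0 to 137 for rapamycin in controls and from 1 to 135 for the genotypes under rapamycin (both in the joint fit), from 0 to at most 16 for rapamycin in mutants, from 6 to between 1 and 7 for mutants with rapamycin minus controls, and from 12 to 0 with a replicate block or 186 without control 3 with rapamycin for the interaction. In sorted PCs 0 became 9 unfiltered and 1 within MS3005. With a replicate block the Inpp4a differences were the same (-0.53 for mutant minus control, adjusted p = 0.762), and counts past the thresholds were 202, 71, 100, 64, 66 and 159 in the order above. Same-numbered TRAP libraries did not deviate together (r = -0.07 to 0.07, 18 pairs), which cannot exclude a pairing. Depth limits the TRAP values, with 123 to 744 Inpp4a fragments per library.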
